A study of Mus musculus with 10 samples.

Results

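The 3 Tet oxidases and the DNA glycosylase Tdg were followed through the 5 culture groups of a mouse embryonic stem cell series, by reading the rows Tet1, Tet2, Tet3 and Tdg of every deposited count table. These are 4 of the 24015 genes counted. All of Tet1, Tet2 and Tet3 passed the filter on low counts, which 14220 genes passed, and Tdg did not. The cells carried a reporter of Wnt/β-catenin signalling and were kept on gelatin with leukaemia inhibitory factor (LIF) in every group, and each group held 2 RNA-seq libraries from total RNA. Serum was the original culture in serum with LIF. First 2i had spent 5 to 6 passages, and long 2i more than 13 passages, in 2i with LIF, where 2i is a pair of kinase inhibitors, 3 µM of one against GSK3 and 1 µM of one against ERK signalling (PD). Serum return had gone through more than 13 passages in 2i and then 6 passages in serum. Second 2i had gone through 13 passages in 2i, 6 passages in serum and a further 4 to 5 passages in 2i. Whether the libraries of a group came from separate cultures is not stated, so p-values measure only how far these libraries differ, and that spread may be technical. Nor is it stated whether one clone or several were used, or that each stage was grown from the culture sampled at the stage before.

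Tet enzymes are dioxygenases that use 2-oxoglutarate, iron and oxygen to oxidise 5-methylcytosine to hydroxymethyl-, formyl- and carboxylcytosine. Tdg, thymine DNA glycosylase, cuts out the formyl and carboxyl forms, and base excision repair then puts back an unmethylated cytosine, while the hydroxymethyl form can also be lost passively as DNA is copied. Mouse embryonic stem cells are known for high Tet1 and Tet2 and low Tet3, and for losing DNA methylation when moved to 2i.

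The promoters of the 3 Tet genes are shown because these genes could be counted and tested. Each run covers 250 bases before to 50 bases after the RefSeq gene start in build GRCm38.p6, 5′ to 3′ along the gene, which lies on the minus strand in all 3 cases, and capitals mark CG dinucleotides, the sites at which DNA is methylated and which Tet enzymes act on. Tet1 is at chr10:62887275-62887574, Tet2 at chr3:133544341-133544640 and Tet3 at chr6:83441629-83441928.
Tet1: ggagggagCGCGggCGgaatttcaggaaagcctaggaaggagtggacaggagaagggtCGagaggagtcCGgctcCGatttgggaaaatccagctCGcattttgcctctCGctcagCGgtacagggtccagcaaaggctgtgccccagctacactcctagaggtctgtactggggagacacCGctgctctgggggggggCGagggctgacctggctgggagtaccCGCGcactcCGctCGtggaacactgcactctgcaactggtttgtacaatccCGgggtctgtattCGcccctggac
Tet2: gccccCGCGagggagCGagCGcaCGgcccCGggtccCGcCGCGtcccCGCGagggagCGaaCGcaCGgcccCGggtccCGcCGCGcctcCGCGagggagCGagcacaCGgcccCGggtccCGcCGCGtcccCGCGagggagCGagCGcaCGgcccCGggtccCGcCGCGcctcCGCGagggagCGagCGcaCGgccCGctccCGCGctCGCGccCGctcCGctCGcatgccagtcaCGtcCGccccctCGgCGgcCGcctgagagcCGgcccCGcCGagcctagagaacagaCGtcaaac
Tet3: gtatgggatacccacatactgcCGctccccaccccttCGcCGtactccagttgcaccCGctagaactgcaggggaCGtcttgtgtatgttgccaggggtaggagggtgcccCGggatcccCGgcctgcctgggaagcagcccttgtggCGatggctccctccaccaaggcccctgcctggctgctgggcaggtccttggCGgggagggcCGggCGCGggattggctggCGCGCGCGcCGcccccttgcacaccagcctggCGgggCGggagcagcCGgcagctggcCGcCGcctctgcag
The Tet2 promoter held 57 CG dinucleotides, and 0.152% of 32851 RefSeq promoters of the same length held as many or more. Tet1 held 17 and Tet3 22, which 31.4% and 23.1% of the promoters matched or exceeded, and the median was 7. The G and C content was 61.7% for Tet1, 81.3% for Tet2 and 71.3% for Tet3. On either strand none of the 3 windows held CTTTGA, a core of Tcf/Lef sites, CACGTG, an E-box, or CCGGAA, an Ets core. These letters stood in 16%, 7.15% and 14.9% of all promoters, and their lack in a window says nothing of the factors.

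For Tdg a stretch of its coding sequence is shown because copies of it elsewhere in the genome bear on what its counts can measure. It is the middle 60 bases, 602 to 661 of 1263 coding bases, of the longest annotated coding transcript of Tdg on chromosome 10 (GENCODE mouse release 21).
Tdg: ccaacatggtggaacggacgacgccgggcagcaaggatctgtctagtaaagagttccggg
Exactly these 60 letters, with 0 differences, were found in the processed pseudogenes Tdg-ps on chromosome 15, Gm5597 on chromosome 7 and Gm9855 on chromosome 10.

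Gene counts totalled 16809070 to 27766338 per library, and reads aligned to more than 1 place, which were counted for no gene, made up 33.41 to 36.51% of all records. Levels below are CPM, counts brought to a common library total and adjusted by the trimmed mean of M values, as mean ± SD over n = 2 libraries. The defining markers of embryonic stem cells were all present, 10 of 10 at 1 CPM or more in each group, with a summed level of 4989 to 7567 CPM per library. Among markers of other cell types, summed levels per library were 7.495 to 42.58 CPM for fibroblasts and feeder cells, 57.73 to 128.6 CPM for endothelium, mostly Pecam1, and 66.44 to 253.7 CPM for neurons, mostly Stmn2 in 2i. They were 5.379 to 51.44 CPM for primitive endoderm, mostly Sox7 in serum, 34.47 to 52.5 CPM for trophectoderm and 75.62 to 210.7 CPM for primed epiblast. Each group but serum return had 2 to 4 of these markers at no counts, drawn from Lum, Postn, Emcn, Rbfox3, Elf5, Hand1 and Fgf5. Rn45s, the precursor of ribosomal RNA, read 2496 and 15480 CPM in the libraries of serum return.

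**Figure D1:**
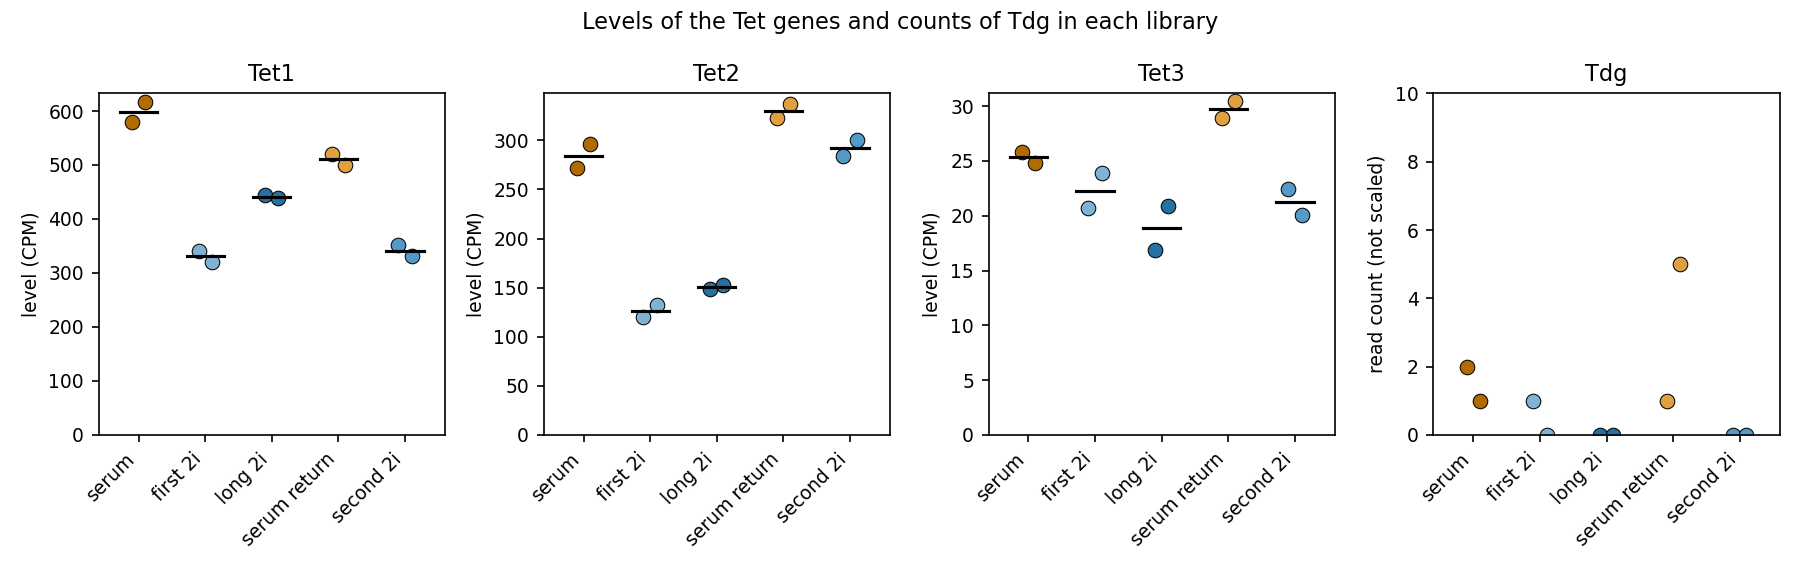
Each point is 1 library and each bar the mean of the 2 libraries of a culture group, in CPM for Tet1, Tet2 and Tet3 and as unscaled read counts for Tdg. Tet1 was highest in serum at 598.9 CPM, Tet2 in serum return at 329.9 CPM, and Tdg had 0 to 5 reads per library.

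The libraries were compared in edgeR's quasi-likelihood test, with p-values adjusted over all genes tested by the Benjamini-Hochberg method, and a gene passed at an adjusted p under 0.05. Changes were common, which sets the background for the calls on single genes. Of all genes tested, 70% passed in first 2i against serum, 68.9% in long 2i against serum, 31% in serum return against serum and 66.4% in second 2i against serum. The share was 61.2% for long against first 2i, 71.4% for serum return against long 2i, 65.6% for second 2i against serum return, 37.7% for second against first 2i and 56.4% for second against long 2i. For serum return against first 2i, where all of Tet1 (1.54-fold), Tet2 (2.62-fold) and Tet3 (1.33-fold) were higher, it was 68%. These comparisons share groups and are not independent of one another. In bulk RNA, fewer cells that express a gene and less of its RNA per cell cannot be told apart.

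Tet1, which has a CXXC domain that binds unmethylated CG, was lower in every 2i group than in either serum group. It read 580.3 and 617.6 CPM in serum, 340.6 and 320.9 CPM in first 2i, 444.6 and 438.5 CPM in long 2i, 520.9 and 499.9 CPM in the serum return group, and 350.9 and 331.7 CPM in second 2i. The groups other than first and second 2i did not overlap one another, and those overlapped. In descending order the groups were serum, serum return, long 2i, second 2i and first 2i. Each step of that order passed except the last.

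In the edgeR test Tet1 fell 1.81-fold in first 2i against serum (330.8 ± 13.9 against 598.9 ± 26.4 CPM; log2 fold change -0.86, SE 0.0504, adjusted p = 4.1e-12). It then was 1.33-fold higher in long 2i than in first 2i (log2 0.42, SE 0.0504, adjusted p = 4.85e-07), yet still 1.36-fold lower than in serum (adjusted p = 1.27e-07). Serum return read 510.4 ± 14.8 CPM, 1.16-fold above long 2i at 441.6 ± 4.29 CPM (adjusted p = 0.000884). It stayed 1.17-fold below the original serum (log2 -0.23, SE 0.0497, adjusted p = 0.0016). In second 2i Tet1 fell 1.5-fold against serum return (log2 -0.58, SE 0.0503, adjusted p = 2.55e-09) and lay 1.75-fold below serum (adjusted p = 1.17e-11). Second 2i at 341.3 ± 13.5 CPM and first 2i at 330.8 ± 13.9 CPM did not pass (log2 0.045, SE 0.0505, adjusted p = 0.515), whereas second 2i was 1.29-fold below long 2i (adjusted p = 2.83e-06).

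Tet2, which lacks a CXXC domain of its own and is known to be recruited by partner proteins, showed a larger fall at the first move to 2i and a small one at the second. Its levels were 271.6 and 296.5 CPM in serum, 120.1 and 132.2 CPM in first 2i, 148.4 and 152.6 CPM in long 2i, 322.9 and 336.9 CPM in the serum return group, and 284 and 300.2 CPM in second 2i. First and long 2i lay below all other libraries, while the libraries of second 2i lay within and just above the range of the serum libraries. Ordered from high to low the groups were serum return, second 2i, serum, long 2i and first 2i. Of the 4 steps only that between second 2i and serum did not pass.

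Tet2 fell 2.25-fold to 126.1 ± 8.55 CPM in first 2i, against 284.1 ± 17.6 CPM in serum (log2 -1.17, SE 0.0581, adjusted p = 2.37e-13) and was 1.89-fold lower in long 2i than in serum (adjusted p = 1.27e-11). Long 2i at 150.5 ± 3 CPM was 1.19-fold above first 2i (log2 0.26, SE 0.059, adjusted p = 0.000856). The return to serum brought a 2.19-fold rise over long 2i to 329.9 ± 9.92 CPM (log2 1.13, SE 0.0577, adjusted p = 3.33e-13). That was 1.16-fold above the original serum (log2 0.22, SE 0.0558, adjusted p = 0.00619), a call that ended when replicate 1 of serum was left out (adjusted p = 0.0927), and likewise for replicate 2 of serum return (adjusted p = 0.0576).

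Second 2i had 292.1 ± 11.4 CPM of Tet2, 1.13-fold below serum return (log2 -0.18, SE 0.0559, adjusted p = 0.00941). This call too ended when replicate 1 of second 2i (adjusted p = 0.109) or replicate 2 of serum return (adjusted p = 0.0803) was left out. Set against the original serum, second 2i did not pass (log2 0.040, SE 0.0562, adjusted p = 0.538). It was 2.32-fold above first 2i (log2 1.21, SE 0.0582, adjusted p = 4.42e-12) and 1.94-fold above long 2i (log2 0.96, SE 0.0579, adjusted p = 2.11e-11). Of the 14220 genes tested, 6.81% had a larger absolute change than Tet2 between second and first 2i.

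Tet3, the Tet enzyme of the oocyte and zygote, was the scarcest per gene length. It read 25.83 and 24.85 CPM in serum, 20.72 and 23.86 CPM in first 2i, 16.9 and 20.9 CPM in long 2i, 28.91 and 30.47 CPM in the serum return group, and 22.45 and 20.04 CPM in second 2i. All 6 libraries from 2i, the highest at 23.86 CPM, lay below all 4 from serum, the lowest at 24.85 CPM. The 3 groups from 2i overlapped one another. From high to low the order was serum return, serum, first 2i, second 2i and long 2i. No step between neighbours passed in the fit by group (adjusted p = 0.0877, 0.112, 0.64 and 0.209). With the series name in the library titles as a replicate block, serum return against serum passed (adjusted p = 0.0146), as did 43.4% of all genes. So did first 2i against serum (adjusted p = 0.0363), with 75.3% of all genes.

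Tests over longer steps passed for Tet3. It was 1.56-fold higher in serum return than in long 2i (29.69 ± 1.1 against 18.9 ± 2.83 CPM; log2 0.65, SE 0.103, adjusted p = 1.18e-05), and 1.34-fold lower in long 2i than in serum at 25.34 ± 0.688 CPM (adjusted p = 0.00152). In second 2i, at 21.24 ± 1.7 CPM, it was 1.4-fold below serum return (log2 -0.48, SE 0.101, adjusted p = 0.000307) and 1.19-fold below serum (log2 -0.26, SE 0.104, adjusted p = 0.0366). That last call ended in DESeq2 (adjusted p = 0.0673) and without either serum library (adjusted p = 0.142 without replicate 1, 0.0654 without replicate 2) or replicate 2 of second 2i (adjusted p = 0.259). First 2i at 22.29 ± 2.22 CPM did not pass against serum (log2 -0.19, SE 0.102), nor did long against first 2i (log2 -0.23, SE 0.107, adjusted p = 0.065). Both passed with the series name as a replicate block (adjusted p = 0.0363 and 0.0166). Between second and first 2i the log2 fold change of Tet3 was -0.069 (SE 0.105).

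**Figure D2:**
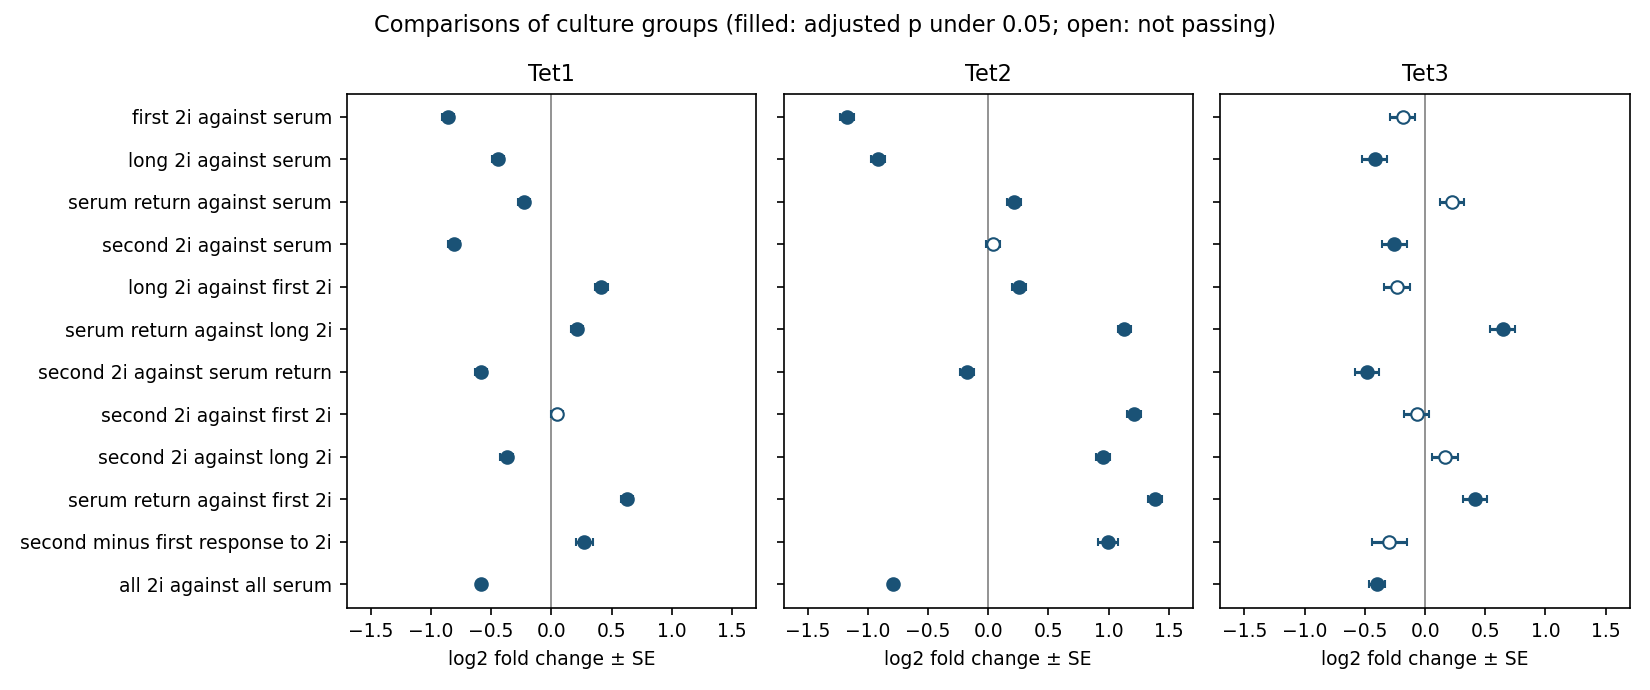
Log2 fold changes with SE for Tet1, Tet2 and Tet3 in each of the 12 comparisons, the group named first over the group named second, filled where the adjusted p was under 0.05. Tet2 stood at 1.21 between second and first 2i, where Tet1 at 0.045 and Tet3 at -0.069 did not pass.

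Averaged over the groups of each medium, all 3 Tet genes were lower in 2i than in serum. Tet1 was 1.5-fold lower (log2 -0.59, SE 0.032, adjusted p = 5.53e-13), Tet2 1.73-fold (log2 -0.79, SE 0.0363, adjusted p = 2.96e-14) and Tet3 1.32-fold (log2 -0.40, SE 0.0657, adjusted p = 1.32e-05). The background was high, since 76.7% of genes passed, 38.4% higher and 38.3% lower. Over single libraries Tet1 ran from 320.9 to 444.6 CPM with a median of 345.8 CPM in 2i, against 499.9 to 617.6 CPM with a median of 550.6 CPM in serum, and did not overlap. Tet2 did overlap, at 120.1 to 300.2 CPM with a median of 150.5 CPM in 2i against 271.6 to 336.9 CPM with a median of 309.7 CPM in serum, through the libraries of second 2i. Absolute changes larger than that of Tet1 were found in 37.6% of genes, than that of Tet2 in 29.2% and than that of Tet3 in 49.9%. Of the 10 embryonic stem cell markers, 6 were lower in 2i, 3 were higher and 1 did not pass. Their summed level per library was lowest in long 2i, at 4989 to 5060 CPM, against 7119 to 7152 CPM in serum. Markers of other cell types moved with the medium too, and the part of any of these markers in the result was not tested. Summed levels per library for primitive endoderm were 5.379 to 19.48 CPM in 2i and 38.26 to 51.44 CPM in serum. Most of the latter was Sox7, at 35.32 CPM in serum and 36.53 in serum return. Of 6 tested markers 3 were lower in 2i, 1 was higher (Gata4, log2 0.70) and 2 did not pass. Fibroblast and feeder sums were 7.495 to 17.93 CPM in 2i and 22.46 to 42.58 CPM in serum. Most of the latter was Thy1, at 13.72 CPM in serum and 22.27 in serum return. Of 5 tested markers 3 were lower in 2i and 2 did not pass. One of the 3, Pdgfrb, was higher in second 2i than in serum (14.11 against 8.132 CPM). For neurons the summed levels were 195.8 to 253.7 CPM in 2i and 66.44 to 71.37 CPM in serum. But the higher sum in 2i was that of Stmn2, and the other 4 of 5 tested neuron markers were lower in 2i. The median log2 fold change over the 5 was -1.16.

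Whether the second exposure to 2i changed each gene as the first had done was tested by the difference of the 2 responses. The first exposure had lasted 5 to 6 passages and the second 4 to 5, so order and length of exposure cannot be told apart. For Tet2 the log2 response was -0.18 at the second exposure and -1.17 at the first, a difference of 1.00 (SE 0.0804, adjusted p = 1.41e-08). Tet1 responded by -0.58 at the second and by -0.86 at the first, and the difference of 0.28 also passed (SE 0.0709, adjusted p = 0.00422). In the edgeR test Tet1 in second against first 2i did not pass (log2 0.045, adjusted p = 0.515). The serum levels it started from did differ, serum return being below serum (log2 -0.23, adjusted p = 0.0016). For Tet3 the order of the 2 responses was the other way, -0.48 at the second and -0.19 at the first, but the difference of -0.30 did not pass (SE 0.144, adjusted p = 0.111). With the series name as a replicate block it passed (-0.29, adjusted p = 0.03), as did 49.8% of all genes. Without the block the difference passed for 39.4% of all genes, 18.4% with a higher and 21% with a lower second response. A larger absolute difference than that of Tet2 was found in 14.6% of genes.

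**Figure D3:**
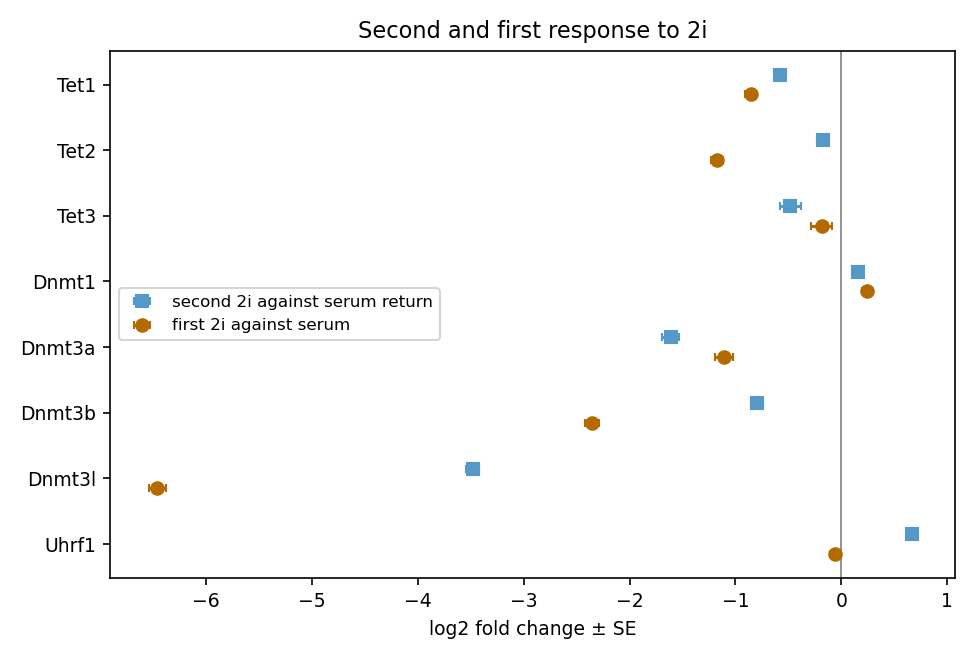
Log2 fold change with SE of the Tet genes and of the methylation writers in second 2i against serum return (squares) and in first 2i against serum (circles). Tet2 responded by -0.18 at the second and -1.17 at the first exposure, and Dnmt3l by -3.48 and -6.46.

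The writers of DNA methylation, which Tet enzymes oppose, moved in both directions in all 2i against all serum. Dnmt3l (log2 -4.04, SE 0.0411), a cofactor, and the de novo methyltransferases Dnmt3a (log2 -1.43, SE 0.052) and Dnmt3b (log2 -0.87, SE 0.0378) fell, and the maintenance genes Uhrf1 (log2 0.24, SE 0.0296) and Dnmt1 (log2 0.18, SE 0.0313) rose. By group, Dnmt3b was higher in long 2i than in serum (179 ± 7.07 against 146.5 ± 2.52 CPM, log2 0.29, adjusted p = 0.000112), and Uhrf1 passed against serum in second 2i (log2 0.42) but not in first 2i (adjusted p = 0.276) or long 2i (adjusted p = 0.952).

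As levels of different genes compare only per length, to set the Tet genes beside one another, CPM were divided by the length of each gene's joined exons, 15457 bases for Tet1, 16870 for Tet2 and 16695 for Tet3. The summed Tet level per kb was 57.11 ± 2.72 CPM in serum, 30.21 ± 0.265 in first 2i, 38.62 ± 0.07 in long 2i, 54.35 ± 0.309 in serum return and 40.66 ± 0.301 in second 2i. Tet1 made up 67.87 ± 0.233% of the sum in serum, 70.82 ± 2.38% in first 2i, 73.97 ± 0.849% in long 2i, 60.75 ± 1.42% in serum return and 54.29 ± 1.75% in second 2i. The share of Tet2 was 29.48 ± 0.431% in serum, 24.76 ± 1.9% in first 2i, 23.1 ± 0.41% in long 2i, 35.98 ± 1.29% in serum return and 42.59 ± 1.99% in second 2i. Second 2i thus had the lowest share of Tet1 and the highest of Tet2, and its libraries did not overlap those of any other group. Tet3 made up 2.662 to 4.421% as a group mean.

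The choice of length moves these shares. With the longest annotated transcript, 14369 bases for Tet1, 9179 for Tet2 and 10904 for Tet3, Tet2 made up 41.27 ± 0.53% in serum, 35.41 ± 2.25% in first 2i, 33.56 ± 0.467% in long 2i, 48.45 ± 1.36% in serum return and 55.31 ± 2.03% in second 2i. The order of the groups in the share of Tet2 was the same by either length. That follows almost from the method, since the length of a gene is the same in all libraries, and is no check on the choice. Which of Tet1 and Tet2 was higher in second 2i was not, since Tet1 had 54.29% by joined exons and 41.3% by the longest transcript. In serum return the 2 genes were then at 47.88 ± 1.49% for Tet1 and 48.45 ± 1.36% for Tet2. The transcripts used in these cells were not measured, so no order between Tet1 and Tet2 is given for these 2 groups.

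**Figure D4:**
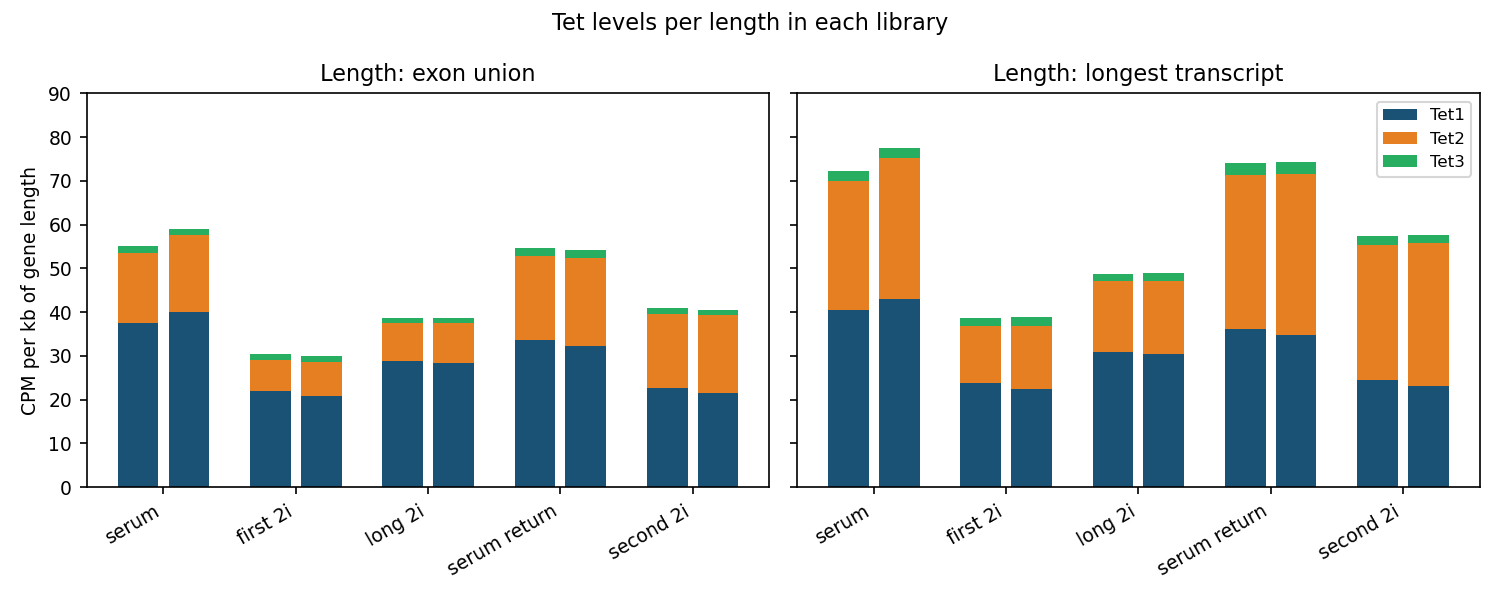
Bars show the CPM per kb of Tet1, Tet2 and Tet3 stacked for each of the 10 libraries, with gene length taken as joined exons (left) or as the longest transcript (right). The Tet2 part is widest relative to the whole in second 2i, at 42.59% and 55.31% by the 2 lengths.

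Over the 10 libraries the Pearson correlation of log2 CPM was 0.494 between Tet1 and Tet2, 0.49 between Tet1 and Tet3 and 0.613 between Tet2 and Tet3, and these points share libraries and culture groups. The genes most like Tet1 among 10032 compared were Naa25, a subunit of an N-terminal acetyltransferase (r = 0.9892), Rrp1b, a nucleolar protein (r = 0.989), and Rabl6, a small GTPase-like protein (r = 0.9862). Naa25 averaged 159.1 CPM in serum, 116.6 in first 2i, 137.6 in long 2i, 143.7 in serum return and 115.9 in second 2i. Most like Tet2 were Atp11a, a phospholipid flippase (r = 0.9876), Porcn, the acyltransferase that lipidates Wnt proteins (r = 0.9868), and Csrnp1, a nuclear protein (r = 0.9811). Porcn averaged 24.01 CPM in serum, 3.965 in first 2i, 6.136 in long 2i, 27.15 in serum return and 17.88 in second 2i. For Tet3 the nearest were Dnaic2, a dynein intermediate chain of cilia (r = 0.9669), Tinagl1, a secreted matrix protein (r = 0.9405), and Crebl2 (r = 0.9355). These are descriptions over 10 libraries, chosen as the highest of many.

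Tdg gave almost no reads. Its counts were 2 and 1 in serum, 1 and 0 in first 2i, 0 and 0 in long 2i, 1 and 5 after the return to serum, and 0 and 0 in second 2i. No library from long or second 2i held a read, and no group reached 10 reads. The limit that a count of 0 allows, 3 counts over the group, corresponded to 0.0837 CPM in long 2i and 0.0804 CPM in second 2i and covers counting error only. With no filter on low counts the adjusted p of Tdg ran from 0.0547, in all 2i against all serum, to 1 over the 12 comparisons, so no change was detectable at this depth.

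Whether these counts give the level of Tdg RNA is not known. Of all windows of 50 bases along the 3502-base Tdg transcript, 57.1% were found letter for letter in a transcript of another locus, and 63.4%, 47.2% and 38.1% of windows of 36, 75 and 100 bases. Tdg-ps matched it at 98.7% over 2968 bases, Gm5597 at 99.3% over 1193 bases and Gm9855 at 99.2% over 1194 bases. Reads aligned to more than 1 place were counted for no gene, and the length of the reads is not given in the sources used here. Gm9855 has a row of its own in the count tables, with 0 reads in all 10 libraries. The other windows were not found in annotated transcripts of other loci, so reads from them would not be set aside for such sharing. The genome outside those transcripts was not searched. How much of the low count the shared windows account for was not tested. Tdg also overlaps Glt8d2 on the opposite strand, and the strand setting of the counting is not given in the sources used here.

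Among annotated transcripts, such sharing was rare for the Tet genes. At 50 bases 0.014% of windows of Tet1 and 0% of those of Tet2 and Tet3 were found in a transcript of another locus. Among the other DNA glycosylases the highest share at that length was 2.66%, for Mbd4. Tet3 overlaps B230319C09Rik on the opposite strand and the microRNA gene Mir6374 on its own strand, both of which the count tables hold, so its reads may in part be theirs or have been set aside as ambiguous.

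**Figure D5:**
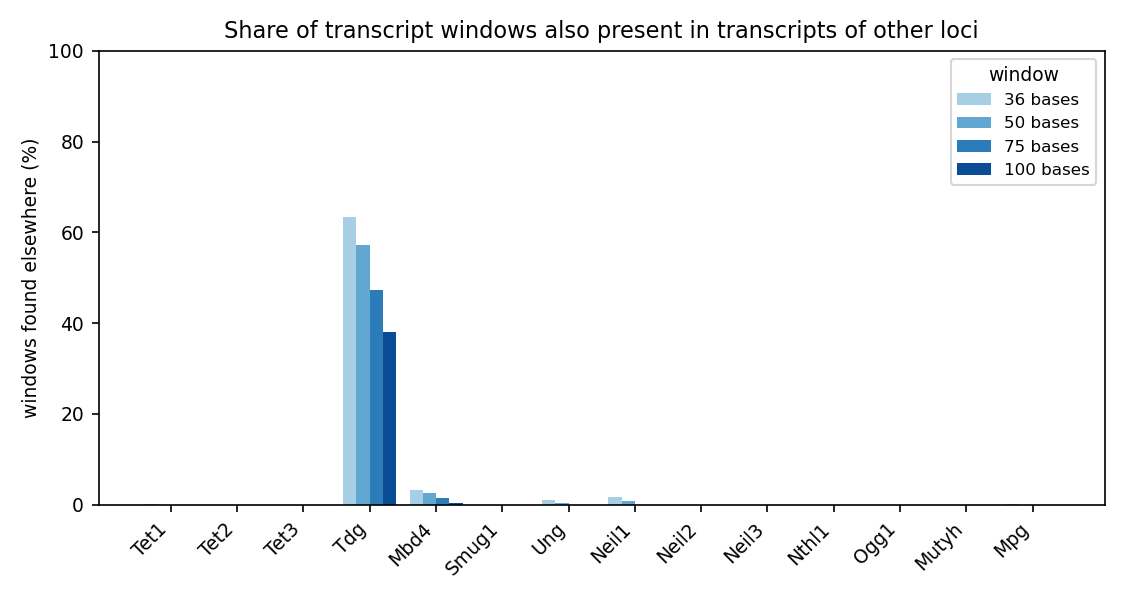
Percent of windows of 36, 50, 75 and 100 bases along the longest coding transcript of each gene that occur letter for letter in a transcript of another locus, for the 4 genes and for 10 other DNA glycosylases. Tdg stands at 63.4% to 38.1%, and no other gene shown reaches 5%.

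Genes that act with or after Tet and Tdg were read from lists, and counts are given for all 2i against all serum in the edgeR test, beside the 38.4% higher and 38.3% lower of all genes and an overall median log2 fold change of 0.00503. Of 10 genes of base excision repair downstream of Tdg, 5 rose and 3 fell, with a median log2 fold change of 0.054. The AP endonucleases Apex2 (log2 0.65, SE 0.0609) and Apex1 (log2 0.35, SE 0.0454), which cut the strand at the abasic site, and the scaffold Xrcc1 (log2 0.41, SE 0.0398) had the largest changes. Apex1 averaged 59.79 CPM in serum, 62.43 in first 2i, 57.8 in long 2i, 41.81 in serum return and 71.76 in second 2i. Against serum neither first 2i (adjusted p = 0.44) nor long 2i (adjusted p = 0.536) passed for Apex1. Its second response exceeded its first by 0.72 (SE 0.0985, adjusted p = 1.1e-05).

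Among 10 other DNA glycosylases 5 rose and 3 fell, with a median of 0.096. Neil3 (log2 -0.95, SE 0.0849) and Neil2 (log2 -0.67, SE 0.0651), endonuclease VIII-like glycosylases that cut out oxidised bases, fell, and Ogg1, the 8-oxoguanine glycosylase, rose (log2 0.54, SE 0.0535). Neil3 averaged 12.6 ± 0.577 CPM in serum, 13.96 ± 0.109 in first 2i, 4.133 ± 1.25 in long 2i, 24.94 ± 2.63 in serum return and 13.36 ± 0.915 in second 2i, and against serum neither first 2i (adjusted p = 0.312) nor second 2i (adjusted p = 0.588) passed. Neil2 read 17.5 ± 0.21 CPM in serum, 14.79 ± 0.254 in first 2i, 11.46 ± 0.758 in long 2i, 16.89 ± 0.463 in serum return and 7.506 ± 0.249 in second 2i. Its second response minus its first was -0.93 (log2, SE 0.146, adjusted p = 5.07e-05), and none of the 10 passed with a higher second response and 4 with a lower one, where 18.4% of all genes passed as higher and 21% as lower.

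Of 11 partners of Tet enzymes 10 were tested, and 4 rose and 4 fell, with a median of -0.054, and Cxxc4 was not tested. Lin28a, an RNA-binding protein reported to recruit Tet1, fell (log2 -1.74, SE 0.0351), and Prdm14, a naive pluripotency factor that represses methyltransferase genes, rose (log2 0.68, SE 0.0396). Prdm14 averaged 48.91 CPM in serum, 96.35 in first 2i, 51.14 in long 2i, 53.28 in serum return and 111.1 in second 2i, and long 2i against serum did not pass (adjusted p = 0.373). Ogt, the enzyme that adds O-GlcNAc and binds Tet proteins, rose (log2 0.48, SE 0.0335), at 434.7 ± 6.6 CPM in first 2i against 240 ± 5.08 CPM in serum and 295.9 ± 14 CPM in second 2i against 274.6 ± 15.2 CPM in serum return (means, n = 2). Its log2 response was 0.11 at the second exposure, which did not pass (adjusted p = 0.0732), though it did when replicate 2 of second 2i (adjusted p = 0.0398) or replicate 1 of serum return (adjusted p = 0.0277) was left out. At the first exposure it was 0.86, and the difference passed (log2 -0.75, SE 0.0727, adjusted p = 1.61e-07).

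The 18 enzymes that make or use 2-oxoglutarate, the cosubstrate of Tet, or its rivals succinate and fumarate split into 6 higher and 8 lower, with a median of -0.046. Idh1, the cytosolic isocitrate dehydrogenase that makes 2-oxoglutarate, rose (log2 0.78, SE 0.0308), and Glud1, glutamate dehydrogenase, fell (log2 -0.49, SE 0.0293). Idh1 averaged 217.6 CPM in serum, 315.6 in first 2i, 370.6 in long 2i, 192.8 in serum return and 375 in second 2i. The difference of the second response from the first passed as lower for 7 of the 18 genes and as higher for 1, and did not pass for 10, where 21% of all genes passed as lower and 18.4% as higher. Of 3 transporters of the vitamin C family Slc23a1 fell (log2 -1.61, SE 0.269) and Slc23a2 rose (log2 0.30, SE 0.0359), while Slc23a3 was not tested. Vitamin C is known to raise Tet activity, and Slc23a1 was at most 2.183 ± 0.45 CPM, in serum.

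All 6 readers of oxidised methylcytosine passed, 3 higher and 3 lower, with Uhrf2 (log2 -0.74, SE 0.0371), which binds hydroxymethylcytosine, and Hmces, listed under an older symbol (log2 -0.51, SE 0.0312), lower and Wdr76 (log2 0.65, SE 0.0391) higher. Of the 6 deaminases and Gadd45 genes tested, 3 rose and 3 fell. Gadd45a fell (log2 -1.09, SE 0.068), Apobec2 fell (log2 -0.69, SE 0.103) and Gadd45g rose (log2 1.22, SE 0.336). For Gadd45g the mean was 2.788 ± 0.0138 CPM in long 2i and 0.2738 to 0.3838 CPM in every other group, and for Apobec2 it was 2.755 ± 0.135 CPM in long 2i and 7.44 to 10.63 CPM elsewhere. In first 2i against serum neither passed (adjusted p = 0.464 for Gadd45g and 0.946 for Apobec2). No list had all its tested genes on one side.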

How the data were processed

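Total RNA of 10 libraries, 2 in each of 5 groups named from the culture media in the labels, was sequenced by the authors, who deposited whole-number read counts per gene. The tools named in the submitters' processing notes are HTSeq 0.5.4p5, TopHat2 2.0.4, CASAVA 1.8.2 and, with no version, DESeq2, and the build is mm9. Annotation, strand setting and read length are not given there. Each table held 24015 genes with 5 summary categories that entered neither library sizes nor tests, and gene counts were 51.16 to 54.81% of all records.

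The test was run with edgeR 4.0.16 in R 4.3.3 (filterByExpr by group, minimum count 10, minimum total 15; TMM factors; robust quasi-likelihood fit by group over the 10 libraries, with no other term, 5 residual degrees of freedom, common biological coefficient of variation 0.0491). P-values were two-sided, adjusted by the Benjamini-Hochberg method over 14220 genes in each of 12 comparisons, with a threshold of 0.05. CPM were computed from the deposited counts and TMM factors, and SE from the fold change and F statistic. The test was checked on simulated data with 200 genes changed, in first 2i only, and the same spread for all genes. In these data many more genes passed in every comparison, a setting that the check does not cover. All 2i against all serum weighted groups equally.

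Lengths and transcripts came from GENCODE mouse release 21 and promoters from RefSeq (GRCm38.p6), matched by symbol for all 4 genes. BLAST 2.17.0 found similar transcripts. No mm9 coordinates were used. Alternatives were RLE factors, total-count scaling, no filter, DESeq2 1.42.0, the title series as a block, only the groups compared, leaving out Rn45s, leaving out each library and another gene length. The genes named are the 4 members, the 3 genes most correlated with each (log2 CPM with prior count 2, mean of at least 5 CPM, no model names), the 3 genes of each list with the largest change among those that passed in all 2i against all serum, and the methylation writers. Some list genes are not reported here. Members and lists were chosen with earlier results of these data known.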

Additional observations from a re-analysis of the deposited data

Results flagged for a closer look

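The response to 2i differed between the exposures for 2 of the 3 Tet genes tested. The difference itself was tested in edgeR, with no block and with Benjamini-Hochberg adjustment. With 5 to 6 passages at the first exposure and 4 to 5 at the second, order and length of exposure cannot be told apart. For Tet2, second 2i minus serum return exceeded first 2i minus serum by 1.00 on the log2 scale (adjusted p = 1.41e-08), with levels of 292.1 against 329.9 CPM at the second exposure and 126.1 against 284.1 CPM at the first. For Tet1 the difference was 0.28 (adjusted p = 0.00422), with 341.3 against 510.4 CPM at the second and 330.8 against 598.9 CPM at the first. Its levels in second and first 2i did not pass against each other (log2 0.045, adjusted p = 0.515), while serum return was below serum (log2 -0.23, adjusted p = 0.0016). A difference between the 2 responses passed for 39.4% of all genes.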

How the results depend on the processing

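None of the results on the Tet genes changed sign in a way that involved a call, and Tet1 kept every call in each of the 12 comparisons under all alternatives run. Tet2 changed a call only with a library left out. With 1 library left out, its log2 fold change ran from -0.21 to -0.13 in second 2i against serum return and from 0.15 to 0.28 in serum return against serum. The corresponding ranges for Tet3 were -0.29 to -0.084 in first 2i against serum, -0.40 to -0.10 in long against first 2i, 0.033 to 0.33 in second against long 2i and -0.34 to -0.17 in second 2i against serum. With the lone library of a group, its spread was assumed to be that of the other groups.

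Tet3 in second 2i against serum had -0.27 in DESeq2 (adjusted p = 0.0673), and Tet3 in long against first 2i had -0.24 with no filter (adjusted p = 0.0495). With the title series LEM and MLE as a replicate block, Tet3 passed in first 2i against serum (-0.19, adjusted p = 0.0363), long against first 2i (-0.23, adjusted p = 0.0166), serum return against serum (0.23, adjusted p = 0.0146) and the second minus the first response (-0.29, adjusted p = 0.03). Deviations of libraries with the same series name correlated at 0.0994 to 0.168, with 2 libraries a group. These values are low but positive in every pair of groups. What libraries with the same series name have in common was not tested. What the names stand for is not stated, so the main fit took no pairing. The block called more genes than the fit without it in each of the 12 comparisons. In serum return against serum it called 43.4% of all genes, where the fit without it called 31%. The causes were not tested.

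The number of genes called ran from 2437 to 4477 in serum return against serum (4407 with all libraries) and from 3556 to 5438 in second against first 2i (5357 with all libraries) when 1 library was left out. The lowest came without replicate 1 of serum return and without replicate 2 of second 2i. Other counts of calls stayed within 1.5 times. Of the list counts, 8 of 664 values moved further under other settings and 32 of 960 with a library left out. With the block, the genes whose 2 responses differed numbered 5 in base excision repair, 7 among the other glycosylases and 7 among the Tet partners, against 3, 4 and 4 without it, where the block called 49.8% of all genes and the fit without it 39.4%. Single list genes lost a call in 7 values under other settings and in 16 with a library left out, none of them a call given above. Every share of a Tet gene per length moved by more than its SD with the longest transcript. Tet3 rests on 286 to 806 reads per library and Tdg on 0 to 5, which limits both.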
